A study of Mus musculus with 12 samples.

Results

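The mRNAs of 34 genes of blood coagulation and fibrinolysis were examined in mouse liver, out of the 54532 genes listed in the deposited table. The members were taken by gene symbol from a list made with earlier results of these data known, and all 34 were found. They comprise 8 genes of the contact and intrinsic pathway, 7 of the extrinsic and common pathway, 4 of fibrinogen and a related protein, 8 of natural anticoagulants, 6 of fibrinolysis, and *Vwf*. The livers came from male C57BL/6J mice that entered the study at 5 weeks of age and ate their diet for 26 weeks, with 3 mice per group. ND-fed mice received a normal diet and control mice a high-fat diet alone. HYA-treated and LA-treated mice received the high-fat diet with 1% HYA, a hydroxy fatty acid that lactic acid bacteria of the gut form from linoleic acid, or with 1% LA, linoleic acid itself. All mice were of this inbred strain, and the high-fat diet was shared by control, HYA-treated and LA-treated mice. The comparison of control with ND-fed mice asks what the high-fat diet goes with, and those of HYA-treated and LA-treated with control mice ask what each fatty acid changes on that diet.

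Coagulation is a cascade in which inactive proteases circulating in plasma activate one another in turn until thrombin cuts fibrinogen into fibrin. Natural anticoagulants such as antithrombin and the protein C system hold this cascade in check, and plasmin, cut from plasminogen, dissolves the clot. Hepatocytes make most of these plasma proteins, whereas the endothelium lining the vessels is the main source of thrombomodulin, von Willebrand factor, factor VIII and tissue plasminogen activator.

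RNA was sequenced as paired ends, and values are given as FPKM, which stands for fragments per kilobase of gene, corrected for library size. The depth ran from 17169064 to 25220880 gene-assigned fragments per mouse. A gene entered the test when its average across the 12 mice was 1 FPKM or more (11083 genes, among them 30 of the 34 members). The test was limma on log2(FPKM + 1), and a gene was called when its p-value adjusted by the Benjamini-Hochberg method over all 11083 genes was under 0.05. Log2 fold changes on this scale understate those of low genes. As a check of the tissue, the FPKM of 8 hepatocyte markers, none of them at 0, summed to 40485 to 42029 in ND-fed mice, 27180 to 31499 in control, 34772 to 36092 in HYA-treated and 29915 to 30557 in LA-treated mice. In whole liver, fewer cells of a type and less RNA per cell cannot be told apart.

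The members spanned a very wide range of levels. The fibrinogen chain genes *Fga*, *Fgg* and *Fgb* were the most abundant per length, with means over ND-fed mice of 1371, 1326 and 972 FPKM, and *Plg*, *Kng1* and *F2* came next with 636, 532 and 401 FPKM. *F13a1*, *Plat*, *Plaur* and *Vwf* had means under 1 FPKM and were not tested. The 34 genes together took 2.26% to 2.48% of all fragments in ND-fed mice, 1.60% to 1.85% in control, 1.80% to 1.99% in HYA-treated and 1.62% to 1.87% in LA-treated mice. The share was thus higher in every ND-fed mouse than in any mouse on the high-fat diet.

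**Figure D1:**
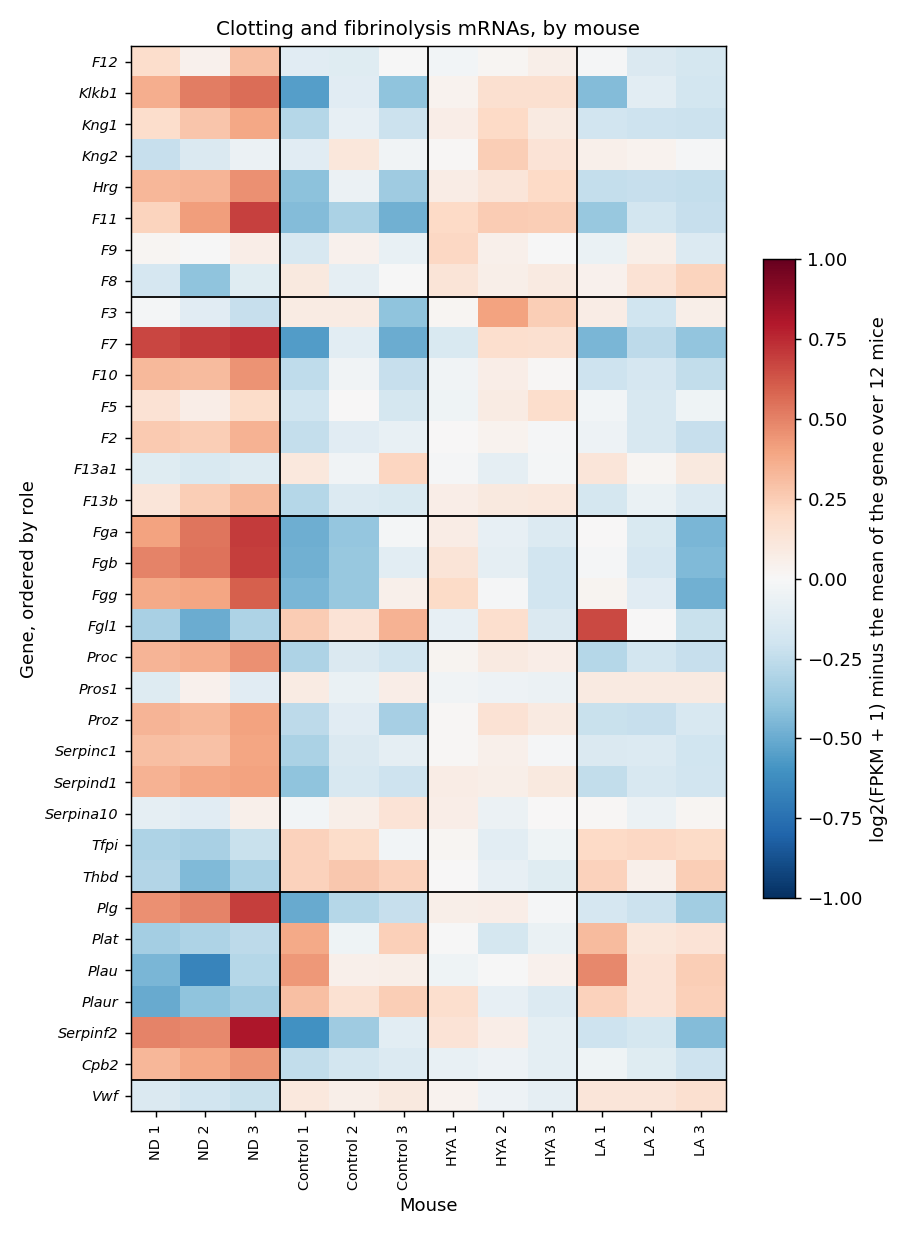
Heat map of the 34 genes (rows, grouped by role as in the text) in each of the 12 mice (columns, grouped by diet); color gives log2(FPKM + 1) minus the mean of the gene over the 12 mice. Most plasma protein genes were high in the 3 ND-fed mice and low in control and LA-treated mice, with HYA-treated mice in between, and *Tfpi*, *Thbd*, *Plau*, *Plaur*, *Plat* and *Vwf* ran the other way.

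In control mice, 20 of the 30 tested members were lower and 4 were higher than in ND-fed mice, and 6 were not called. The 20 that fell included the 3 fibrinogen chains along with proteases, cofactors and inhibitors, and *Thbd*, *Tfpi*, *Plau* and *Fgl1* rose. Among all genes tested, 19.1% were called lower and 16.2% higher in this comparison, so the share of members that fell was well above the background and the share that rose was not. The median log2 fold change of the tested members was -0.49, beside -0.04 over all genes tested. Ranges of the 3 mice did not overlap for 20 members that were lower and 5 that were higher, where 25.7% and 19.9% of all genes did so. Of the hepatocyte markers, 5 of 8 were called lower in control mice and none higher, with *Alb*, encoding albumin, at a log2 fold change of -0.51, and their part in the result was not tested. Only *F7* passed a 2-fold threshold as well, beside 1.63% of all genes that passed it downward and 2.25% upward.

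Rescaling the columns to TPM, which forces every mouse to the same total, shifted the all-gene median by 0.21 on the log2 scale and the share of higher genes among all calls from 45.9% to 83.8%. Under that scaling 18 members were lower and 8 were higher. Over all genes, 4524 of 11083 were called with TPM, 83.8% of them higher, so the 8 higher members do not stand out. Relative to the median of all genes, the members' median was -0.45 before and -0.43 after rescaling. Rescaling multiplies all genes of a mouse by the same factor, so this difference could hardly change and is no check of the result.

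Within the contact and intrinsic pathway, 5 of 8 genes fell and none rose. *F11* encodes factor XI, the protease that activates factor IX. It measured 25.3, 29.2 and 35.4 FPKM in the 3 ND-fed mice and 15.7, 17.1 and 15.2 FPKM in control mice. It lay well below the ND-fed range in every control mouse (log2 fold change -0.85, SE 0.10, adjusted p = 0.000138 by limma). *Klkb1* encodes plasma prekallikrein, which activates factor XII and frees bradykinin from kininogen. Its level was 34.9, 38.8 and 40.1 FPKM in ND-fed and 18.1, 24.8 and 20.2 FPKM in control mice (log2 fold change -0.83, SE 0.11, adjusted p = 0.000307 by limma). *F11* and *Klkb1* are paralogs that lie side by side on chromosome 8 (GRCm38 chr8:45241174-45294859, both on the minus strand, 4657 bases apart), and they fell by a similar amount.

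*Hrg*, encoding histidine-rich glycoprotein, a plasma protein that binds heparin and plasminogen, fell as well. Levels were 353, 356 and 386 FPKM in ND-fed and 212, 269.8 and 219.9 FPKM in control mice, with no overlap (log2 fold change -0.65, SE 0.08, adjusted p = 0.000216 by limma). *Hrg* lies on chromosome 16 (chr16:22951072-23082078) together with *Kng2* and *Kng1*, the kininogen genes. *Kng1* was 493, 530.2 and 573 FPKM in ND-fed and 358, 413 and 377 FPKM in control mice (log2 fold change -0.47, SE 0.07, adjusted p = 0.000532 by limma). *Kng2* was not called and pointed slightly upward, with a log2 fold change of 0.13 and a 95% interval of -0.04 to 0.30. The ratio of *Kng1* to *Kng2* was therefore 6.21, 6.29 and 6.38 in ND-fed mice but 4.17, 4.09 and 4.15 in control mice. It was 4.88, 4.54 and 4.55 in HYA-treated and 3.97, 3.97 and 4.08 in LA-treated mice, so that HYA-treated mice lay above both other groups on the high-fat diet. *Kng1* and *Kng2* are closely similar copies, and how the counting divided their reads is uncertain. *F12*, encoding factor XII, had a small decrease (log2 fold change -0.25, SE 0.07, adjusted p = 0.0206 by limma), and this call was lost in 5 of 20 alternatives, among them TPM (adjusted p = 0.883) and the fits without ND mouse 3 (0.0754), control mouse 1 (0.0642) or control mouse 2 (0.0571).

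The other genes of the intrinsic pathway behaved differently. *F9*, whose protein is activated by factor XI and which is vitamin K-dependent like factor VII, was 65.1, 64.2 and 67.3 FPKM in ND-fed and 57.5, 66.2 and 60.9 FPKM in control mice. The ranges overlapped and the 95% interval of the log2 fold change was -0.25 to 0.07, so that a decrease of the size seen for *F11* lay outside it. *F8*, the cofactor of factor IX, was 3.37, 2.72 and 3.52 FPKM in ND-fed and 4.25, 3.60 and 3.89 FPKM in control mice, higher in every control mouse than in any ND-fed mouse but not called (adjusted p = 0.0534 by limma with Benjamini-Hochberg).

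In the extrinsic and common pathway, 5 of 6 tested genes fell and none rose. *F7*, encoding factor VII, the protease that tissue factor engages to start clotting, fell the most of all members. Its values were 51.1, 52.3 and 53.2 FPKM in the ND-fed and 21.3, 29.6 and 22.3 FPKM in the control mice. Even the highest control mouse was far below the lowest ND-fed mouse, and the control mean was 0.467 times the ND mean (log2 fold change -1.08, SE 0.12, adjusted p = 8.33e-05 by limma). *F7* is followed on chromosome 8 by *F10* and *Proz* within a single short stretch (chr8:13026034-13076026, all on the plus strand, 1498 and 4237 bases apart). *F10*, encoding factor X, which as activated enzyme cuts prothrombin, decreased from 141 ± 7.67 to 96.8 ± 8.31 FPKM (SD, n = 3, log2 fold change -0.54, SE 0.07, adjusted p = 0.000174 by limma). *F2*, encoding prothrombin itself, decreased from 401 ± 15.5 to 298 ± 17.8 FPKM (log2 fold change -0.43, SE 0.06, adjusted p = 0.000502). *F13b* (chr1:139501702-139523752), the carrier subunit of the fibrin-crosslinking factor XIII, decreased from 83.1 ± 5.81 to 61.8 ± 3.40 FPKM (log2 fold change -0.42, SE 0.06, adjusted p = 0.000531). *F5*, the cofactor of factor X, showed a small decrease (log2 fold change -0.25, SE 0.08, adjusted p = 0.0228) that was lost in 6 of 20 alternatives, among them TPM (adjusted p = 0.84) and the fits without ND mouse 1 (0.0563), ND mouse 3 (0.0729), control mouse 1 (0.0839) or control mouse 3 (0.0675). *F3*, encoding tissue factor, was low and did not differ detectably, with 68 to 84 fragments in ND-fed and 64 to 115 in control mice and a 95% interval of -0.28 to 0.36.

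To place *F7*, *F11* and *F9* beside one another, the letters just before their start sites are given for a gene that fell strongly, one that fell and one that was not called. The sequences are from RefSeq (GRCm38.p6), run from 140 bases before the start site to 10 bases after it, 5′ to 3′ on the strand of the gene, and capitals mark motif matches.

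F7, chr8:13025894-13026043, plus strand: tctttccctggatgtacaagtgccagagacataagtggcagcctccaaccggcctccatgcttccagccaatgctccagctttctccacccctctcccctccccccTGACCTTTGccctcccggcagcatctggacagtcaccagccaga

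F11, chr8:45262022-45262171, minus strand: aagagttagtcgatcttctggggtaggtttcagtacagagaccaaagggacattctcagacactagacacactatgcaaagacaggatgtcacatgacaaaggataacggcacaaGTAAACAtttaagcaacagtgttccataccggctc

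F9, chrX:59999324-59999473, plus strand: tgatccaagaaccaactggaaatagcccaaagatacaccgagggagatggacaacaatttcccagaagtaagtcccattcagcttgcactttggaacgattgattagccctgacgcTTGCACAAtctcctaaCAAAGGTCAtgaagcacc

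The capitals in *F7* are TGACCTTTG, the reverse complement of CAAAGGTCA, a sequence of the type bound by the hepatocyte factor HNF4, and begin 34 bases before the start. In *F9*, CAAAGGTCA begins 8 bases before the start, so that its last letter is the start base itself. *F9* also carries TTGCACAA, a match to the C/EBP-type motif TTGCNCAA, which begins 24 bases before the start. *F11* holds GTAAACA, the reverse complement of the FOXA-type motif TGTTTAC, 25 bases before its start, and its neighbor *Klkb1* has the same letters 21 bases before its own. Both strands of the 300-base promoters of the 25 members found in the table were searched with 5 motifs, and the matches shown do not overlap one another. CAAAGGTCA was found in 0.478% of 32851 promoters of the same length (2 members, *F7* and *F9*) and TGTTTAC in 3.65% (2 members, *F11* and *Klkb1*). The related HNF4-type letters CAAAGTCCA were found in 0.475% and in no member. The HNF1-type motif was found in 0.399% and in *F13b* alone among the members. *F7* and *F9* thus share a motif while differing in their change, and the matches are descriptions of letters only.

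All 3 fibrinogen chain genes fell, and they moved together. Fibrinogen is a hexamer built from pairs of the 3 chains, and its genes are clustered on chromosome 3 (chr3:83007724-83049863). *Fga* was 1237, 1359 and 1517 FPKM in ND-fed mice and 668, 717 and 925 FPKM in control mice (log2 fold change -0.84, SE 0.14, adjusted p = 0.00112 by limma). *Fgb* was 919.5, 949 and 1049 FPKM in ND-fed and 467, 499.6 and 604 FPKM in control mice (log2 fold change -0.90, SE 0.13, adjusted p = 0.000417). *Fgg* was 1253, 1266 and 1461 FPKM in ND-fed and 704, 740.3 and 1000.1 FPKM in control mice (log2 fold change -0.72, SE 0.16, adjusted p = 0.0061). For each chain the highest control mouse, mouse 3 in every case, stayed below the lowest ND-fed mouse. The sum of the 3 chains was 3409 to 4027 FPKM in ND-fed and 1839 to 2529 FPKM in control mice. The ratio of *Fga* to *Fgb* stayed between 1.34 and 1.53 over all 12 mice, whereas that of *Fgg* to *Fgb* was 1.33 to 1.39 in ND-fed mice and 1.45 to 1.66 over the other 9 mice. *Fgl1*, encoding a liver-secreted fibrinogen-like protein that does not form clots, went the opposite way, with 19.8, 17.5 and 20.1 FPKM in ND-fed and 30.1, 27.7 and 32.3 FPKM in control mice (log2 fold change 0.62, SE 0.18, adjusted p = 0.0223 by limma). Its call was lost in 4 of 20 alternatives, namely without a filter on low values (adjusted p = 0.0509) and without ND mouse 2 (0.0745), control mouse 1 (0.0609) or control mouse 3 (0.0634).

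The promoters of the fibrinogen genes, printed in the same way because the 3 genes moved together, hold the C/EBP-type motif TTGCNCAA in 2 of 3 cases.

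Fga, chr3:83026013-83026162, plus strand: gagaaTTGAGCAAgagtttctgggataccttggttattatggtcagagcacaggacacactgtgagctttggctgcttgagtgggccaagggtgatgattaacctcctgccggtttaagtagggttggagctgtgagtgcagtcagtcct

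Fgb, chr3:83049854-83050003, minus strand: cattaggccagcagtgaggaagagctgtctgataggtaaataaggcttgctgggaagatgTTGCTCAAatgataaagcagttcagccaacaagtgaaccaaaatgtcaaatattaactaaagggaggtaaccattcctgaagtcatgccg

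Fgg, chr3:83007584-83007733, plus strand: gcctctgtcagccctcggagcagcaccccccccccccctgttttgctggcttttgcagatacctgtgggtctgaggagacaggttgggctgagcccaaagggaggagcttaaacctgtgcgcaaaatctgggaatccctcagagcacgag

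The match begins 135 bases before the start in *Fga* (TTGAGCAA) and 80 bases before it in *Fgb* (TTGCTCAA), and none of the motifs searched is in the *Fgg* window. TTGCNCAA was found in 2.94% of all promoters and in 5 members, namely *Fga*, *Fgb*, *F9*, *Hrg* and *Kng2*, of which *F9* and *Kng2* were not called.

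Among the anticoagulants, 4 of 8 genes fell and 2 rose. *Serpind1* (chr16:17331371-17343575), encoding heparin cofactor II, a thrombin inhibitor, was 268, 276 and 279 FPKM in ND-fed and 159, 188 and 183 FPKM in control mice (log2 fold change -0.63, SE 0.06, adjusted p = 4.24e-05 by limma). *Proc*, encoding protein C, which as activated enzyme destroys factors V and VIII, was 312, 317 and 338 FPKM in ND-fed and 199, 223 and 215 FPKM in control mice (log2 fold change -0.60, SE 0.06, adjusted p = 3.35e-05). *Proz*, encoding protein Z, the cofactor that steers an inhibitor to factor X, was 74.1, 73.2 and 77.2 FPKM in ND-fed and 48.4, 53.9 and 46.2 FPKM in control mice (log2 fold change -0.59, SE 0.06, adjusted p = 6.14e-05). For these genes every control mouse was below every ND-fed mouse by a wide margin. *Serpinc1*, encoding antithrombin, fell from 243 ± 9.44 to 170.3 ± 13.6 FPKM (SD, n = 3, log2 fold change -0.51, SE 0.06, adjusted p = 0.000145). *Serpind1* lies inside *Pi4ka* on the opposite strand, which averaged 5.41 FPKM over all mice, and whether the counting used strand is not given in the sources used here.

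*Serpina10*, the inhibitor that protein Z assists, and *Pros1*, encoding the protein C cofactor protein S, were not called. *Serpina10* measured 41.8 ± 2.66 FPKM in ND-fed and 45.04 ± 2.62 FPKM in control mice, and *Pros1* measured 17.3 ± 1.28 and 18.6 ± 1.07 FPKM (SD, n = 3). Their 95% intervals were -0.03 to 0.24 and -0.04 to 0.23, which do not overlap those of *Proz* (-0.73 to -0.45) and *Proc* (-0.73 to -0.47). Rescaled to TPM, *Serpina10*, *Pros1*, *Kng2* and *F8* were called higher in control mice, as were 83.8% of all genes called under that scaling.

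**Figure D2:**
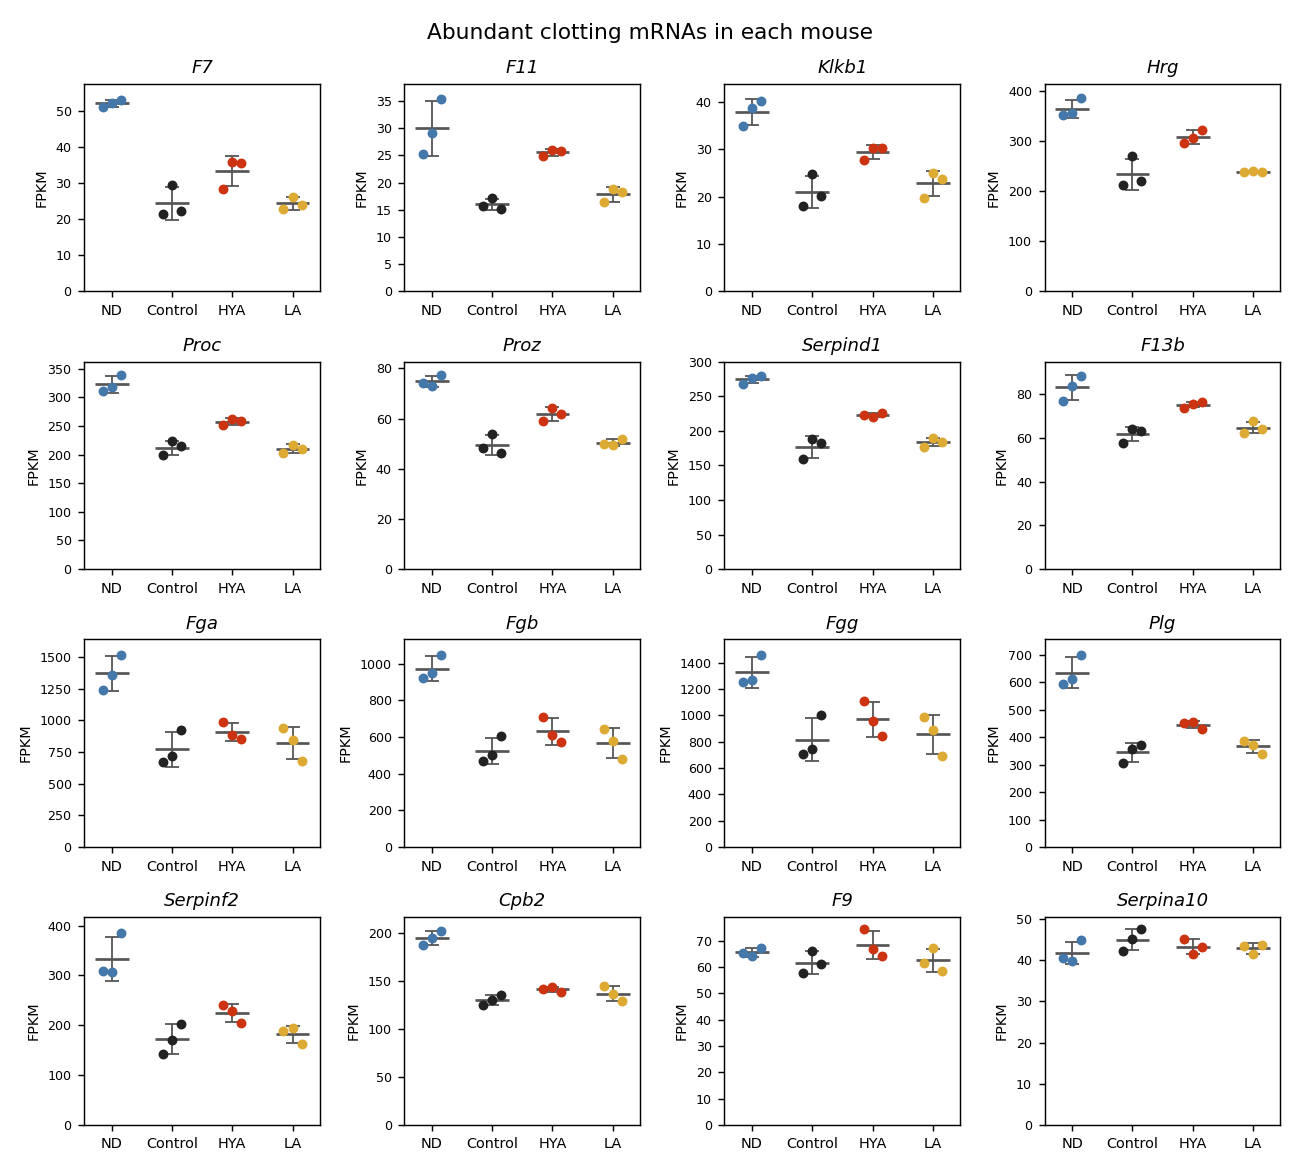
FPKM of 16 abundant members in each mouse (points) by diet group; horizontal lines are means and error bars SD of 3 mice, and each vertical axis starts at 0. In 14 panels the control mice lie below the ND-fed mice; in *F9* and *Serpina10* (last panels) the groups overlap. HYA-treated mice lie above control mice without overlap in *F11*, *Klkb1*, *Hrg*, *Proc*, *Proz*, *Serpind1*, *F13b*, *Plg*, *Serpinf2* and *Cpb2*.

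The pair that rose is made mainly by endothelium. *Thbd* (chr2:148404466-148408188), encoding thrombomodulin, the receptor on which thrombin activates protein C, was 1.47, 1.22 and 1.42 FPKM in ND-fed and 2.54, 2.64 and 2.54 FPKM in control mice (log2 fold change 0.59, SE 0.07, adjusted p = 0.000138 by limma). *Tfpi*, encoding the inhibitor of the tissue factor pathway, was 1.44, 1.41 and 1.58 FPKM in ND-fed and 2.55, 2.42 and 1.95 FPKM in control mice (log2 fold change 0.41, SE 0.07, adjusted p = 0.00165). These are low levels, resting on 72 to 96 fragments of *Thbd* and 122 to 155 of *Tfpi* in each ND-fed mouse. *Vwf*, encoding von Willebrand factor, which tethers platelets and carries factor VIII, was 0.790, 0.733 and 0.696 FPKM in ND-fed and 1.13, 1.07 and 1.13 FPKM in control mice, again without overlap. It was below the limit for testing. Without that limit, its log2 fold change was 0.28 with an adjusted p of 0.0106 by limma. Markers of endothelium moved in the same direction: the sum of 9 of them was 64.3 to 80.0 FPKM in ND-fed and 89.8 to 90.5 FPKM in control mice, 3 of the 9 were called higher, and none was at 0. Their part in the result was not tested.

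In fibrinolysis, 3 of 4 tested genes, all encoding plasma proteins, fell, and the activator gene *Plau* rose. *Plg* (chr17:12378608-12419385), encoding plasminogen, was 595, 611 and 701 FPKM in ND-fed and 306, 356 and 371 FPKM in control mice (log2 fold change -0.88, SE 0.09, adjusted p = 3.90e-05 by limma). *Serpinf2* (chr11:75431732-75439591), encoding the plasmin inhibitor antiplasmin, was 309, 306 and 385 FPKM in ND-fed and 143, 171 and 203 FPKM in control mice (log2 fold change -0.95, SE 0.13, adjusted p = 0.000368). *Cpb2*, encoding a carboxypeptidase that protects fibrin from plasmin, was 188, 195 and 203 FPKM in ND-fed and 125, 131 and 136 FPKM in control mice (log2 fold change -0.58, SE 0.06, adjusted p = 3.56e-05). The zymogen and its inhibitor fell alike, and their ratio stayed between 1.82 and 2.14 in all 12 mice. By contrast *Plau* (chr14:20836660-20843385), encoding urokinase, which cuts plasminogen to plasmin, was 1.01, 0.745 and 1.27 FPKM in ND-fed and 2.73, 1.86 and 1.88 FPKM in control mice (log2 fold change 0.65, SE 0.13, adjusted p = 0.00311).

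The remaining low genes, none of them tested for want of level, were higher in every control mouse than in any ND-fed mouse. *Plaur*, the urokinase receptor, had 24 fragments over the 3 ND-fed mice and 142 over the control mice, and its mean FPKM was 4.78 times as high in the latter. *Plat*, encoding tissue plasminogen activator, had 17 and 197 fragments, with means 9.42 times apart. *F13a1*, the catalytic subunit of factor XIII, which macrophages and platelets make, had 11 and 91 fragments, with means 6.81 times apart. With so few fragments in ND-fed mice these ratios are imprecise. In the fit without a filter on low values the adjusted p-values by limma were 0.000795 for *Plaur*, 0.00772 for *Plat* and 0.0195 for *F13a1*. Sums of 8 macrophage markers ran from 147 to 239 FPKM in ND-fed and from 201 to 218 FPKM in control mice, with 2 called higher and 2 lower. Sums of 8 stellate cell markers ran from 50.9 to 64.5 and from 99.0 to 130 FPKM, with 5 called higher. Sums of 6 platelet markers were 1.43 to 1.48 and 2.54 to 3.80 FPKM, with 1 marker at 0 in every mouse. Sums of 5 bile duct markers were 19.1 to 27.8 and 77.9 to 172 FPKM, with 2 of 3 tested markers called higher. Most of that sum was *Spp1* alone, at 16.0 to 24.3 and 74.2 to 166 FPKM. The tested marker *Sox9* did not rise, with means of 1.88 and 1.80 FPKM, and *Krt7* and *Krt19* had means under 1 FPKM. The part of these cells in the result was not tested.

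**Figure D3:**
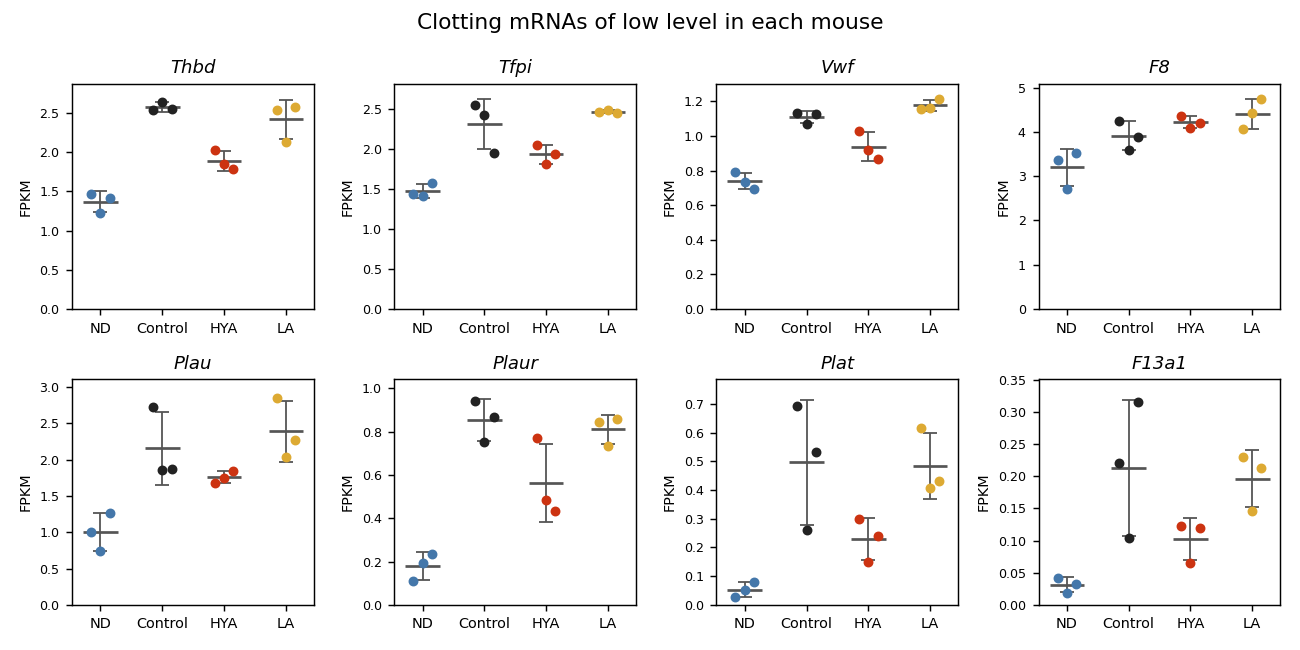
FPKM of 8 members of low level in each mouse (points) by diet group; horizontal lines are means and error bars SD of 3 mice, and axes start at 0. In all 8 panels each control mouse lies above each ND-fed mouse. *F3*, also of low level but not shown, overlapped between these groups. In *Thbd*, *Plau* and *Vwf* each HYA-treated mouse lies below each control mouse.

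HYA-treated mice had higher levels of 8 of the 30 tested members and a lower level of 1 than control mice, and 21 were not called. Those that rose were *F11*, *Kng1* and *Hrg* of the intrinsic pathway, *F13b*, the anticoagulants *Serpind1*, *Proz* and *Proc*, and *Plg*, and *Thbd* fell. Of all genes tested, 1.57% were called higher and 1.23% lower. Ranges did not overlap for 14 members that were higher and 2 that were lower, beside 12.7% and 8.87% of all genes. The median log2 fold change of the tested members was 0.22, beside 0.02 over all genes. With TPM the all-gene median moved by -0.11 on the log2 scale. The members' median relative to it was 0.19, against 0.20 with FPKM, a difference that such rescaling leaves nearly fixed. No member passed a 2-fold threshold, as 0.162% of all genes did upward and 0.144% downward. These calls depended on single mice and on the fit. The number of members called higher was 11 without control mouse 2, 4 without LA mouse 1, 3 without ND mouse 2, 2 without LA mouse 2 or LA mouse 3, 1 without HYA mouse 1, and 0 without control mouse 1, control mouse 3, HYA mouse 2 or HYA mouse 3. It was 3 with TPM, 1 without a filter on low values, and 0 with only the 2 groups in the fit. No member was called lower when any mouse was left out. Calls over all genes, in either direction, varied as well and numbered 310 in the reported fit. Without control mouse 1, 2 or 3 they numbered 29, 653 and 80, and without HYA mouse 1, 2 or 3 they numbered 84, 0 and 59. Without LA mouse 1, 2 or 3 they numbered 221, 145 and 142, and without ND mouse 2 they numbered 151. They numbered 497 with TPM, 105 of 26045 genes without a filter, and 0 with only the 2 groups.

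*F11* showed the largest rise. Its values in HYA-treated mice were 24.9, 25.98 and 25.8 FPKM, compared with 15.7, 17.1 and 15.2 FPKM in control mice. The lowest HYA-treated mouse was thus far above the highest control mouse, and the group reached the lower end of the ND-fed range (log2 fold change 0.64, SE 0.10, adjusted p = 0.0179 by limma). Its adjusted p was between 0.0102 and 0.111 over 20 alternatives and over 0.05 in 5 of them, namely the fit of only the 2 groups and those without control mouse 1 (0.0735), control mouse 3 (0.0517), HYA mouse 2 (0.0862) or HYA mouse 3 (0.0582). The log2 fold change itself remained between 0.54 and 0.69. *Klkb1*, its neighbor, was 27.7, 30.2 and 30.3 FPKM in HYA-treated mice, above every control mouse, and narrowly missed the threshold (log2 fold change 0.47, adjusted p = 0.0542 by limma).

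*Hrg* was 296, 306 and 323 FPKM in HYA-treated mice, above the highest control value of 269.8 FPKM (log2 fold change 0.41, SE 0.08, adjusted p = 0.0357 by limma). *Kng1* was 458, 503 and 466 FPKM (log2 fold change 0.31, SE 0.07, adjusted p = 0.0474), and *F13b* was 73.9, 75.6 and 76.3 FPKM (log2 fold change 0.28, SE 0.06, adjusted p = 0.0453). In none of these genes did a HYA-treated mouse fall within the control range. The call was lost in 11 of 20 alternatives for *Hrg*, and in 12 of 20 for *Kng1* and for *F13b*. *F7*, which had fallen most on the high-fat diet, was 28.5, 35.9 and 35.6 FPKM in HYA-treated mice. Mouse 1 of this group lay just below the highest control mouse of 29.6 FPKM, and the difference was not called (log2 fold change 0.44, adjusted p = 0.0754 by limma).

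Of the anticoagulants, *Serpind1* was 222, 219.8 and 225 FPKM in HYA-treated mice, a tight group above all control mice (log2 fold change 0.33, SE 0.06, adjusted p = 0.0296 by limma). *Proz* was 58.9, 64.4 and 62.02 FPKM (log2 fold change 0.32, SE 0.06, adjusted p = 0.0323) and *Proc* was 252, 263 and 258 FPKM (log2 fold change 0.28, SE 0.06, adjusted p = 0.0357), each without overlap with control mice. The call was lost in 7 of 20 alternatives for *Serpind1*, 10 of 20 for *Proz* and 11 of 20 for *Proc*. *Thbd* went the other way, with 2.02, 1.85 and 1.78 FPKM against a lowest control value of 2.54 FPKM (log2 fold change -0.31, SE 0.07, adjusted p = 0.0487). The call of *Thbd* was lost in 15 of 19 alternatives, with adjusted p-values up to 0.173. *Plg* was 452, 455 and 429.8 FPKM, above every control mouse (log2 fold change 0.38, SE 0.09, adjusted p = 0.0487), and its call was likewise lost in 15 of 20 alternatives, with adjusted p-values up to 0.179. Sums of the 9 endothelial markers were 84.2 to 91.5 FPKM in HYA-treated and 89.8 to 90.5 FPKM in control mice, and none of the 9 was called. None of the 8 hepatocyte markers was called either, although their sum was higher in every HYA-treated than in any control mouse. All 8 had a positive log2 fold change, with a median of 0.23, beside 0.22 for the tested members. Of the stellate cell markers 2 of 8 were lower, with sums of 84.3 to 102 FPKM, and of the bile duct markers 2 of 3 tested, with sums of 38.5 to 52.5 FPKM. Most of the bile duct sum was again *Spp1*, at 35.6 to 50.1 FPKM, and *Sox9* was not called. The part of these cell types in the result was not tested.

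Fibrinogen was not among the genes called. *Fga* was 984, 882 and 853 FPKM in HYA-treated mice, *Fgb* was 711, 612 and 570.2 FPKM and *Fgg* was 1105, 956 and 843 FPKM. For each chain control mouse 3 lay within the range of the HYA-treated mice, whereas the other control mice lay below it. Their log2 fold changes were 0.25, 0.27 and 0.26, with adjusted p-values of 0.391, 0.294 and 0.44 by limma. The 95% intervals of these differences, -0.07 to 0.56, -0.01 to 0.56 and -0.10 to 0.61, include both no change and rises as large as that of *Hrg*. *Serpinf2* (log2 fold change 0.39, adjusted p = 0.148) and *Plau* (-0.18, 0.507) were not called, although their HYA-treated ranges lay apart from those of control mice. Among the genes not tested, HYA-treated mice had 90 fragments of *Plat* (control mice 197), 90 of *Plaur* (142), 44 of *F13a1* (91) and 933 of *Vwf* (1134). Without a filter on low values their adjusted p-values ran from 0.233 to 0.438 by limma, and only *Vwf* had ranges apart from control.

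**Figure D4:**
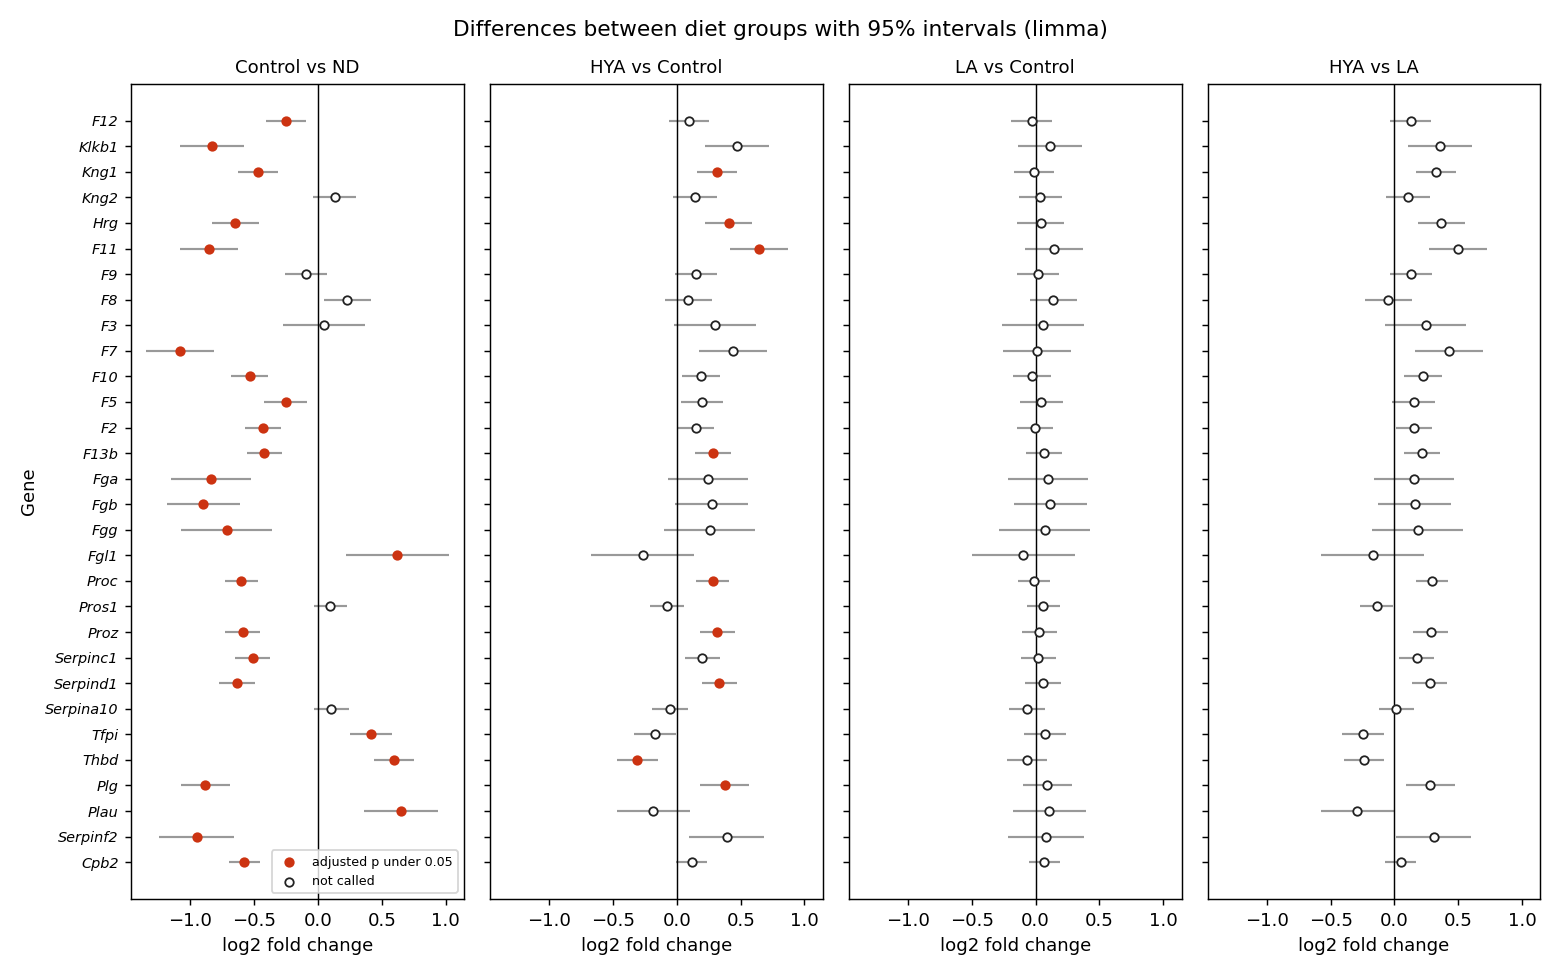
Log2 fold changes on the log2(FPKM + 1) scale with 95% intervals from limma for the 30 tested members in 4 comparisons; filled points have an adjusted p under 0.05. The control vs ND panel holds 24 filled points, the HYA vs control panel 9, and the other panels none.

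In LA-treated mice no tested member was called against control. Of the 30, limma called 0 and 0 had an unadjusted p under 0.05 (2.65% of all genes did), and limma-voom, a fit on recovered fragment counts, also called none. Among all genes tested 0% were called. All adjusted p-values were 0.999. The log2 fold changes ran from -0.10 to 0.14 with a median of 0.05, and every 95% interval lay between -0.50 and 0.43. Among tested members *Pros1* alone had ranges apart, lying higher in LA-treated mice, where 3.94% of all genes did so upward and 3.61% downward. *F11* was 16.4, 18.9 and 18.2 FPKM, overlapping the control range. *Hrg* was 239, 239.8 and 238 FPKM, within the control range for all 3 mice. *Plg* (386, 373 and 340.3 FPKM) and *F7* (22.9, 26.3 and 24.01 FPKM) also overlapped control mice. The 95% intervals for *F7* (-0.25 to 0.28) and *Fgl1* (-0.50 to 0.31) leave room for moderate differences that 3 mice per group could not show.

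HYA and LA were given at the same dose and for the same time, and HYA differs from LA by an added hydroxyl group in place of a double bond. Between the groups no member was called by limma (of all genes, 0.235% were called higher with HYA and 0.253% lower), although 18 of 30 had an unadjusted p under 0.05, beside 17.2% of all genes. Limma-voom called 4 of them higher, *Kng1*, *F11*, *Proc* and *Proz*. Over all 11083 genes it called 166 in either direction, where limma called 54. The lowest adjusted p-values by limma were those of *Proc* (log2 fold change 0.29, interval 0.17 to 0.42, adjusted p = 0.0569) and *F11* (0.50, interval 0.27 to 0.73, 0.0618). *Proc* was 252, 263 and 258 FPKM in HYA-treated and 202, 218 and 210.1 FPKM in LA-treated mice. The ranges were well apart for *Proc*, as they were for 14 members in which HYA-treated mice were higher and 4 in which they were lower, beside 14.8% and 10.4% of all genes. The count of members called higher was 5 without control mouse 1, 7 without control mouse 2 and 1 without ND mouse 3. Over all genes, 229, 259 and 18 were called in either direction in these 3 fits. Leaving out those mice changes the shared estimate of the spread, not the values compared. The 8 hepatocyte markers, none of them called, all had a positive log2 fold change in HYA vs LA, 5 with ranges apart. Their median was 0.31, beside 0.17 for the tested members, and their part in the result was not tested.

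Control vs ND and HYA vs LA have no mouse in common, so their directions can be set side by side. All 20 members that were lower in control than in ND-fed mice averaged higher with HYA than with LA, with ranges apart in 14 and a median log2 fold change of 0.25. All 4 members that were higher in control mice, *Thbd*, *Tfpi*, *Plau* and *Fgl1*, averaged lower with HYA than with LA, with ranges apart in 3 and a median of -0.24. The whole transcriptome leaned the same way. Of 2115 genes lower in control mice, 81.3% averaged higher with HYA than with LA (37.6% with ranges apart, median 0.10), and of 1795 genes higher in control mice, 22.5% did so (35.9% lower with ranges apart, median -0.13). The members shared a direction that most responding genes had.

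A further list of 38 genes that act on clotting without being members was described by counts, and 27 of them could be tested. In control mice 9 rose and 10 fell against ND-fed mice, beside 16.2% and 19.1% of all genes tested. *Serpine2*, encoding protease nexin 1, an inhibitor of thrombin and urokinase, fell, from 2.63, 2.70 and 3.03 to 0.814, 0.582 and 0.810 FPKM (log2 fold change -1.13, SE 0.08, adjusted p = 6.06e-06 by limma).

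*Anxa2* and *S100a10* encode the 2 parts of a cell-surface complex that binds plasminogen and *Plat* product. *Anxa2* was 4.16, 4.00 and 3.89 FPKM in ND-fed mice and 37.7, 24.7 and 39.3 FPKM in control mice (log2 fold change 2.77, SE 0.18, adjusted p = 2.43e-06 by limma). It was 21.01, 15.1 and 14.7 FPKM in HYA-treated and 40.6, 33.5 and 30.8 FPKM in LA-treated mice, and was the only gene of this list called in HYA vs control (log2 fold change -0.95, SE 0.18, adjusted p = 0.0293) and in HYA vs LA (log2 fold change -1.01, adjusted p = 0.0397). *S100a10* rose on the high-fat diet (log2 fold change 1.03, SE 0.19, adjusted p = 0.0018) and was not called in HYA-treated mice (adjusted p = 0.256). The vitamin K cycle serves the carboxylation of factors II, VII, IX and X and proteins C, S and Z. Of its genes, *Ggcx*, the carboxylase, and *Vkorc1*, the reductase, fell (log2 fold changes -0.59 and -0.50, adjusted p = 0.00129 and 0.0244 by limma). The second reductase gene *Vkorc1l1* rose (0.31, 0.00621). None of the 3 was called in HYA-treated or LA-treated against control mice. Of the members that depend on vitamin K, *F2*, *F7*, *F10*, *Proc* and *Proz* fell and *F9* and *Pros1* were not called (log2 fold changes -0.09 and 0.10, intervals -0.25 to 0.07 and -0.04 to 0.23).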

How the data were processed

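Liver RNA of 12 male C57BL/6J mice (ND, control, HYA and LA, 3 each) was sequenced from paired ends. The authors deposited a single table with FPKM values, 1 column for each mouse. Per the labels' processing notes, fastp, HISAT2 2.0.5 and featureCounts 1.5.0-p3 were used with the build GRCm38, whereas the methods name TPM. The columns summed to 342146 to 429286, which TPM would not allow, so the values were treated as FPKM. Multiplied by gene length, 100% of the low nonzero values were whole multiples (within 0.05) of a step fitted to the low values of their column. That step was taken as 1 fragment. Higher values were rounded to whole fragments without this check. The authors' scaling was 0.917 to 1.10 times the recovered fragments and was kept. By group it was 0.917 to 0.953 in ND-fed, 1.03 to 1.10 in control, 0.980 to 1.01 in HYA-treated and 1.05 to 1.06 in LA-treated mice. A larger factor lowers every FPKM value of a mouse, so the scaling differed between the groups compared. The TPM alternative does not depend on this factor.

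Groups were taken from the sample labels. One linear model over all 12 mice was fitted to log2(FPKM + 1) with limma 3.58.1 in R 4.3.3 (empirical Bayes with trend, two-sided), for genes averaging 1 FPKM or more. p-values were adjusted by Benjamini-Hochberg over 11083 genes in each comparison, and calls required an adjusted p under 0.05. The script was tested on simulated data. All members were named, each by role, and the members and the other lists were chosen with earlier results of these data known, as were the motifs after their matches had been seen. HYA vs control and LA vs control share their control mice with each other and with control vs ND. The alternatives were a pseudocount of 0.1, no filter, a filter of 5 FPKM, TPM, median-ratio size factors, voom on recovered fragments, only the 2 groups compared, a replicate block, a 2-fold threshold, and leaving out each mouse.

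Coordinates are those of the deposited table, and 33 of 34 members have identical ones in GENCODE M21. Promoter sequences were read from a RefSeq table (GRCm38.p6) that holds 25 of the 34 members. *Kng1*, *Fgl1*, *Proc*, *Serpina10*, *Thbd*, *Plg*, *Plat*, *Plau* and *Vwf* were not in it. A further gene of the clotting list is not reported here.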

Additional observations from a re-analysis of the deposited data

How the results depend on the processing

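No member called in control vs ND or HYA vs control changed direction in any alternative run. Of the values of the 24 members called in control vs ND, 462 stayed on their side of the threshold and 15 fell short of it, and of those of the 9 called in HYA vs control, 81 stayed and 98 fell short. Of those of *Proc*, *F11* and *Proz* in HYA vs LA, 45 stayed and 15 newly passed. The number of members higher in control vs ND was 4, and it was 7 without a filter on low values, 1 with a filter of 5 FPKM, 8 with TPM, 0 with a 2-fold threshold and 3 to 5 when 1 mouse was left out. The filter of 5 FPKM leaves *Thbd*, *Tfpi* and *Plau* untested, with means over all mice of 2.06, 2.04 and 1.83 FPKM. The number lower was 20, with 1 under the 2-fold threshold and 18 to 20 without 1 mouse. Over all genes, calls in either direction in control vs ND were 3910 in the reported fit and 4524 with TPM. They were 4202 of 26045 genes without a filter and 2505 of 5763 with a filter of 5 FPKM. In HYA vs control, 8 were higher, with 1 without a filter, 3 with TPM, 0 with only the 2 groups compared, 0 with a 2-fold threshold and 0 to 11 without 1 mouse. There, 1 was lower (*Thbd*), with 0 under a pseudocount of 0.1, no filter, only the 2 groups and a 2-fold threshold, and 0 whichever mouse was left out. It was also 0 with a filter of 5 FPKM, where *Thbd* was not tested. In HYA vs LA, 0 were higher in the reported fit, 6 with a filter of 5 FPKM, 4 with voom, 2 with only the 2 groups and 0 to 7 without 1 mouse. Over all genes, calls in either direction there were 54 in the reported fit and 165 of 5763 with the filter of 5 FPKM. They were 166 with voom and 94 with only the 2 groups. The causes were not tested, except that fewer genes are tested with a stricter filter. LA vs control stayed at 0 throughout.

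The labels number the mice 1 to 3 in each group and give no link between equal numbers. Deviations from group means correlated between same-numbered mice at -0.40 to 0.29 (3 of 18 pairs over 0.1), and 2 of 12 mice correlated best with their own number, so the numbers were not taken to pair the mice. With the replicate block 6 members were called higher in HYA vs LA, 9 were higher and 1 lower in HYA vs control (*Plg* lost its call, adjusted p = 0.0592 by limma), and 5 were higher and 20 lower in control vs ND. Over all genes, the block gave 258, 449 and 3792 calls in these comparisons, where the reported fit gave 54, 310 and 3910.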
